A study of Mus musculus with 6 samples.

Results

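The Dppa genes (developmental pluripotency associated) are a set of genes named together because their transcripts mark pluripotent cells of the early mouse embryo and disappear as cells differentiate. Their names do not mark 1 protein family. Members were chosen by name as Dppa2, Dppa3, Dppa4 and Dppa5a, which are 4 of the 42450 genes in the table, and all 4 passed the filter on low counts. They were compared between mouse embryonic stem cells of the male line E14tg2a.4 (WT, 3 libraries) and a heterozygous derivative of that line (Srrm2+/-, 3 libraries). In the Srrm2+/- line, a gene trap interrupts 1 allele of Srrm2, whose product is a splicing factor found in nuclear speckles. This line is a single clone, and the WT cells had been frozen at later passages than the Srrm2+/- cells, so genotype, clone and passage cannot be told apart. Both lines were grown on gelatin and, before collection, in serum-free medium with LIF (leukaemia inhibitory factor), and total RNA was sequenced.

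DPPA2 and DPPA4 carry a SAP domain, a short DNA-binding fold. They bind each other and sit at promoters of developmental genes that are poised for activation, where they counter DNA methylation. They are also known to help switch on Dux and the Zscan4 genes, which mark the 2-cell embryo and rare cells in stem cell cultures. DPPA3, also called Stella or PGC7, is a maternal protein and a marker of primordial germ cells that keeps UHRF1 away from chromatin and thereby limits the copying of DNA methylation. DPPA5A is a small RNA-binding protein with a KH domain.

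Dppa4 (ENSMUSG00000058550, GRCm38 chromosome 16, 48283733 to 48294237) and Dppa2 (ENSMUSG00000072419, chromosome 16, 48303908 to 48319723) lie side by side on the plus strand with 9.67 kb between them. Dppa3 (ENSMUSG00000046323) lies on the plus strand of chromosome 6, from 122626410 to 122630272. Dppa5a (ENSMUSG00000060461) lies on the minus strand of chromosome 9, from 78367052 to 78368177. No other annotated gene overlaps any of them, but all have processed copies elsewhere in the genome that could take part of their reads. To show how close these copies are, a stretch of 60 coding bases of each gene was set beside the non-coding copy that differed least there, among those compared, read 5′ to 3′ from annotated GENCODE transcripts (build GRCm38). Capitals mark the bases that differ, and positions are counted from 1 at the first base shown. The stretches start at the start codon, except for Dppa3, where coding bases 61 to 120 are the first window with at most 10 differences to a copy.
Dppa2: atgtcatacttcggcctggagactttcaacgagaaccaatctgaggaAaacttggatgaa
Gm9788, copy of Dppa2: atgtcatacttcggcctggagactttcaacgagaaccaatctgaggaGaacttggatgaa
Dppa4: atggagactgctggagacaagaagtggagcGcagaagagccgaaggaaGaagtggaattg
Gm14058, copy of Dppa4: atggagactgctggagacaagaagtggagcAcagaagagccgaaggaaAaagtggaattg
Dppa3: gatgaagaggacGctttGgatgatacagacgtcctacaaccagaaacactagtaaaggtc
Dppa3-ps, copy of Dppa3: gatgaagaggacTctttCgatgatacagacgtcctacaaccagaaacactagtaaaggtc
Dppa5a: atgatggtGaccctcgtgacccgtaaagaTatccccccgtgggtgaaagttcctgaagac
Gm6798, copy of Dppa5a: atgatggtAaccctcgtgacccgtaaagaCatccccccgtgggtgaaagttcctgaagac

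Gm9788 differed from Dppa2 by 1 base in this stretch (A48G), and the other 3 copies by 2 bases each (G31A and G49A in the Dppa4 copy, G13T and G18C in the Dppa3 copy, G9A and T30C in the Dppa5a copy). Over whole transcripts, the share of 31-base words that also occur in transcripts of other genes was 33.8% for Dppa2, 40.1% for Dppa4, 29.6% for Dppa3 and 57.2% for Dppa5a. The estimated counts assigned to the copies named next were small. Such estimates may already divide shared reads between gene and copy, so they cannot show how many reads were shared. Some copies had no row in the table. Gm14058 held 220 to 243 estimated counts in WT and 261 to 286 in Srrm2+/-, against 6735 to 9558 for Dppa4 itself. Gm9788 held 9 to 25 counts in all, and Dppa3-ps at most 3. The protein coding gene Pigp, which shares 22.8% of the words of Dppa5a, held 493 to 774 counts against 54031 to 63852 for Dppa5a. The pseudogenes Dppa5b and Dppa5c were not analysed here.

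All 6 libraries held between 54151433 and 69933421 estimated counts. The trapped gene itself, Srrm2, had a level of 91.2 to 98.3 CPM (counts scaled to a common library size) in WT, against 56.2 to 62.3 CPM in Srrm2+/-. The 7 stem cell markers Pou5f1, Sox2, Nanog, Zfp42, Esrrb, Tdgf1 and Utf1 were detected in both lines, with a summed level of 4085 to 4206 CPM in WT and 3542 to 3622 CPM in Srrm2+/-. By edgeR, 4 of the 7 were called lower (Nanog, Sox2, Zfp42 and Esrrb) and 1 higher (Utf1). Of all tested genes, 11.7% were called lower and 13.6% higher. Summed markers of other cell types were low. Fibroblast markers (6 genes) were at 3.36 to 3.63 CPM in WT and 6.53 to 9.87 CPM in Srrm2+/-. Dcn, which was not tested, held 0 counts in every WT library and 4, 2 and 3 counts in Srrm2+/-. By edgeR, 3 of the 6 were called higher, with log2 fold changes of 3.89 (Col1a2), 2.28 (Col3a1) and 1.13 (Col1a1). Trophoblast markers (5 genes) were at 1.83 to 1.89 and 2.36 to 2.79 CPM, with 1 gene called higher (Eomes). Cdx2, which was not tested, held 0 counts in every WT library and 5, 8 and 17 counts in Srrm2+/-. Primitive endoderm markers (6 genes) were at 2.32 to 2.70 and 2.54 to 3.57 CPM, with 1 gene called higher (Dab2). In these 3 lists 0 genes were called lower by edgeR. Log2 fold changes were below 0 for 1 of 5 tested fibroblast markers (Thy1, -0.70) and 1 of 3 tested trophoblast markers (Elf5, -0.33). So were 3 of 5 tested primitive endoderm markers, with Sox7 lowest (-0.77). The part of these other cell types in the results below was not tested. In these bulk libraries, fewer cells that express a gene and less RNA of that gene per cell cannot be told apart.

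The first question was whether the Dppa genes moved together when the dose of Srrm2 was lower. They did not. Dppa3 rose, Dppa4 rose slightly, Dppa5a fell slightly and the difference of Dppa2 did not pass the threshold. With edgeR (adjusted p under 0.05 over all tested genes), 3 of the 4 genes were called, against 25.3% of the 18905 tested genes in all, 13.6% as higher and 11.7% as lower. The same 3 genes had no overlap between the groups, as did 41.4% of all tested genes.

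**Figure D1:**
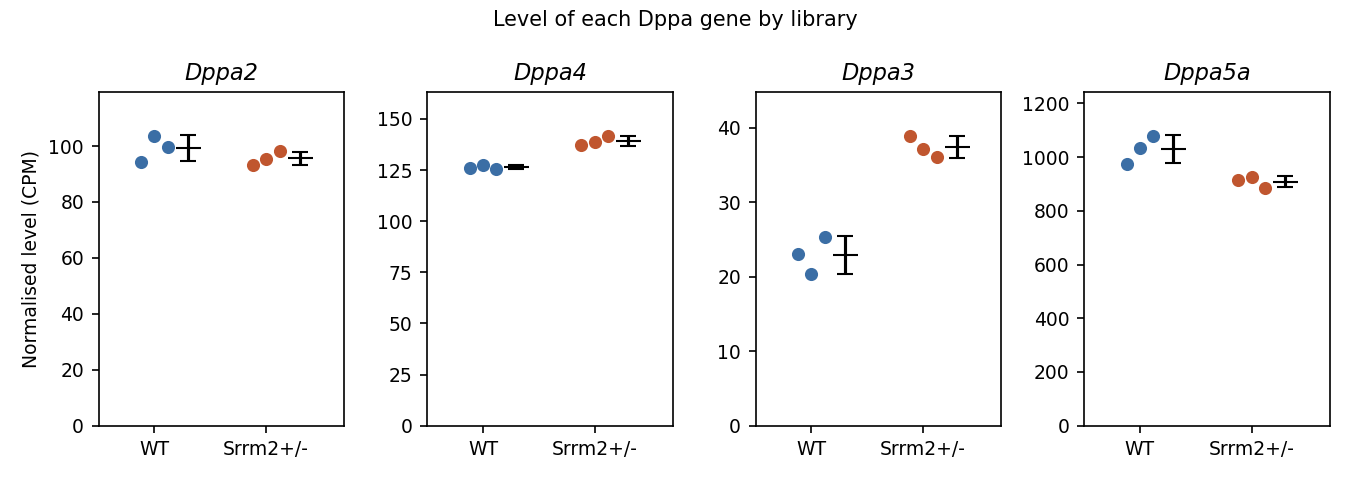
Normalised level (CPM, linear axis from 0) of each Dppa gene in every library, with WT in blue and Srrm2+/- in orange, and the mean and SD of 3 libraries as a bar beside the points. Dppa3 is above 36 CPM in all Srrm2+/- libraries and below 26 CPM in all WT libraries, whereas the points of Dppa2 overlap.

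Dppa3, the UHRF1 antagonist and germ cell marker, was at 23.1, 20.3 and 25.4 CPM in WT replicates 1 to 3 and at 38.9, 37.2 and 36.0 CPM in Srrm2+/- replicates 1 to 3. All Srrm2+/- libraries lay above all WT libraries, with a gap larger than the spread within either group. The mean of Dppa3 went from 22.9 ± 2.52 up to 37.4 ± 1.47 CPM (SD, n = 3 each), which is 1.63-fold with a 95% interval of 1.44 to 1.84. On the log2 scale this was 0.71 (SE 0.08), with an edgeR adjusted p of 0.000253, and 8.42% of tested genes had a larger rise. Among genes called higher, 43.2% had a larger rise, so that Dppa3 stood near the middle of them. Over the 15 alternative settings it stayed higher and past the threshold, between 0.63 and 0.79.

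Dppa4 was at 126, 128 and 126 CPM in WT and at 137, 139 and 142 CPM in Srrm2+/-. The WT libraries were tightly grouped and all Srrm2+/- libraries lay above them. The mean went from 126 ± 1.06 up to 139 ± 2.45 CPM (SD, n = 3 each), which is 1.10-fold with a 95% interval of 1.04 to 1.16. On the log2 scale this was 0.14 (SE 0.03), with an edgeR adjusted p of 0.0176, a size that 60.6% of tested genes exceeded in either direction. The call was lost without WT replicate 3 (0.14, adjusted p 0.0607) and without Srrm2+/- replicate 3 (0.13, adjusted p 0.0668), with fewer libraries in those fits.

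Dppa2, the binding partner of DPPA4, was at 94.2, 104 and 99.8 CPM in WT and at 93.4, 95.5 and 98.1 CPM in Srrm2+/-. The groups overlapped. The means were 99.3 ± 4.79 and 95.7 ± 2.36 CPM (SD, n = 3 each), and the difference of -0.05 on the log2 scale (SE 0.05), with an edgeR adjusted p of 0.443, did not pass the threshold. Its 95% interval ran from -0.16 to 0.05, or from 0.897-fold to 1.03-fold.

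Dppa5a was at 974, 1035 and 1080 CPM in WT and at 916, 926 and 884 CPM in Srrm2+/-. The highest Srrm2+/- library lay below the lowest WT library, by less than the SD within WT. The mean went from 1030 ± 53.5 down to 909 ± 21.8 CPM (SD, n = 3 each), which is 0.882-fold with a 95% interval of 0.820 to 0.950. On the log2 scale this was -0.18 (SE 0.05), with an edgeR adjusted p of 0.0215, and 52.5% of tested genes changed by more in either direction. The call held without WT replicate 1 (-0.22, adjusted p 0.00991) and without Srrm2+/- replicate 1 (-0.18, adjusted p 0.046). It was lost without WT replicate 2 (-0.17, adjusted p 0.065), without WT replicate 3 (-0.14, adjusted p 0.0842), without Srrm2+/- replicate 2 (-0.19, adjusted p 0.0507) and without Srrm2+/- replicate 3 (-0.16, adjusted p 0.0776). In an alternative chosen after seeing the data, the counts of the non-coding copies present in the table were added to each gene. This gave log2 fold changes of -0.05 for Dppa2, 0.70 for Dppa3, 0.13 for Dppa4 and -0.18 for Dppa5a and changed no call. Copies absent from the table and the protein coding gene Pigp were not added.

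**Figure D2:**
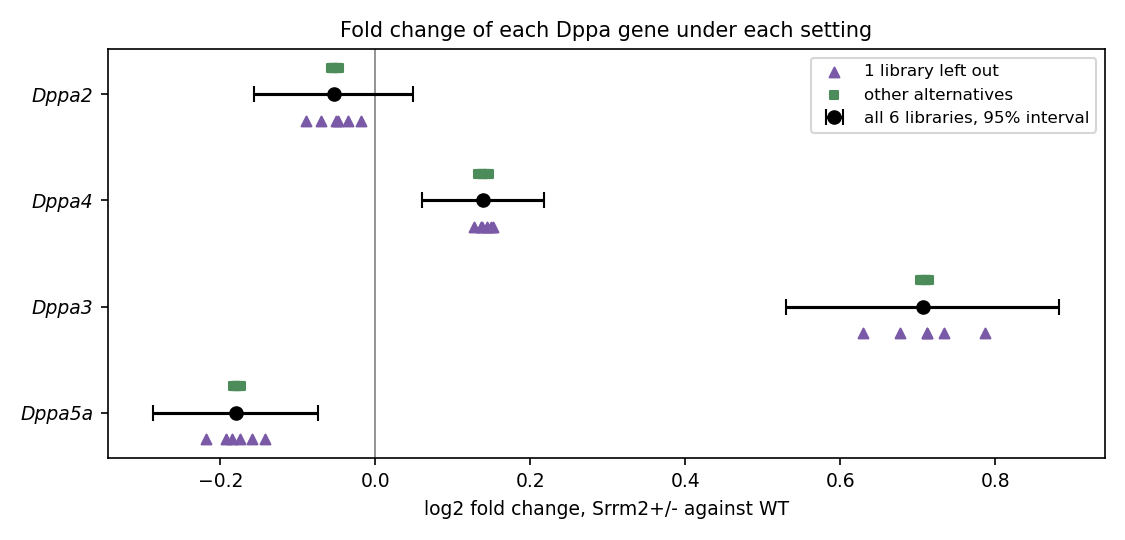
Log2 fold change of each Dppa gene, Srrm2+/- against WT, with its 95% interval from all 6 libraries (black), the values with 1 library left out (purple triangles) and under the other alternatives (green squares). The intervals of Dppa3, Dppa4 and Dppa5a exclude 0, that of Dppa2 includes it, and no alternative moves a gene across 0.

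To ask how unequally the genes moved, free of library scaling, the log2 ratio of the counts of each pair was taken within each library. For all 6 pairs the Srrm2+/- libraries lay apart from the WT libraries. The 6 ratios are built from 4 genes, so they are not independent of each other or of the single-gene values above. Of single tested genes, 41.4% had no overlap, and the share over all pairs of genes was not computed. The neighbours Dppa2 and Dppa4, whose proteins act as partners, shifted against each other: log2 of Dppa2 over Dppa4 was -0.42, -0.30 and -0.33 in WT and -0.55, -0.54 and -0.53 in Srrm2+/-. Every Srrm2+/- library had relatively less Dppa2. The mean changed from -0.35 ± 0.06 to -0.54 ± 0.01 (SD, n = 3 each), a difference of -0.19.

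The widest shift was that of Dppa3 over Dppa5a, which changed from -5.49 ± 0.15 to -4.60 ± 0.04 on the log2 scale (SD, n = 3 each), a difference of 0.89. Dppa3 over Dppa4 differed by 0.57 and Dppa2 over Dppa3 by -0.76. The smallest shift was that of Dppa2 over Dppa5a, with -3.37 ± 0.06 in WT and -3.25 ± 0.07 in Srrm2+/-, a difference of 0.13. Each pair gave a two-sided exact permutation p of 0.1, the smallest that 3 against 3 libraries allow, and 0.1 when adjusted over the 6 pairs, so none could pass the threshold in this design.

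**Figure D3:**
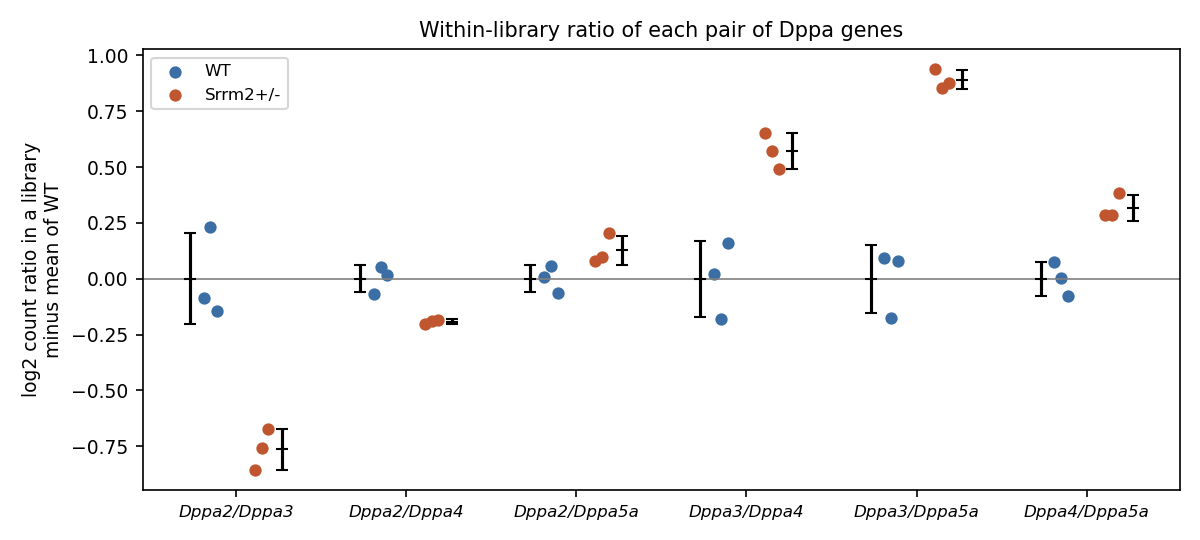
Log2 ratio of the counts of 2 Dppa genes within a library, minus the mean ratio of WT, for the 6 pairs, with WT in blue, Srrm2+/- in orange and mean and SD (n = 3) as bars. The groups do not overlap in any pair, though the pairs share genes and are not independent. The difference is widest for Dppa3/Dppa5a (0.89) and narrowest for Dppa2/Dppa5a (0.13).

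Levels of different genes were compared per kb of merged exons. Dppa5a was by far the highest, at 1663 ± 86.4 CPM per kb in WT and 1468 ± 35.2 CPM per kb in Srrm2+/- (SD, n = 3 each), which placed it at rank 70 and rank 66 of 18825 genes. It alone took 0.103% of all counts in WT and 0.0907% in Srrm2+/-. Dppa4 followed at 76.0 ± 0.640 and 83.8 ± 1.47 CPM per kb. The third place changed hands. In WT, Dppa2 was at 40.6 ± 1.96 CPM per kb and Dppa3 at 25.7 ± 2.82 CPM per kb, whereas in Srrm2+/- Dppa2 was at 39.1 ± 0.965 CPM per kb and Dppa3 at 41.9 ± 1.64 CPM per kb. The Srrm2+/- libraries ranged from 38.2 to 40.1 CPM per kb for Dppa2 and from 40.4 to 43.7 CPM per kb for Dppa3. With 1 length rule for both genes, Dppa3 was above Dppa2 in Srrm2+/- each time, also per kb of the longest transcript (44.9 against 39.1 CPM per kb) and of the shortest coding transcript (54.1 against 49.1 CPM per kb). The order would turn only if the rules were mixed, with the shortest coding transcript for Dppa2 and merged exons or the longest transcript for Dppa3. In WT, Dppa3 was below Dppa2 with any of these lengths.

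Dppa1, the remaining gene of the name series, held at most 1 count in any library and was not tested. The chromosomal neighbours were examined next, taking the 5 nearest protein coding genes on each side of each member. Of 30 such genes, 28 were in the table and 20 could be tested, of which 2 were called higher and 5 lower (median log2 fold change -0.05). Over all tested genes the shares were 13.6% higher and 11.7% lower, with a median of -0.00254.

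Dppa3 lies between Gdf3 and Nanog. Nanog, the homeobox factor of the core pluripotency network that starts 77.2 kb to the right of Dppa3, was at 465, 494 and 487 CPM in WT and at 293, 303 and 281 CPM in Srrm2+/-. Its fall, by 0.72 on the log2 scale (SE 0.04) with an edgeR adjusted p of 8.60e-06, ran opposite to the rise of Dppa3 and was of about the same size on the log2 scale. Gdf3, a TGF-β family ligand 16.3 kb to the left, had means of 67.3 ± 1.77 and 61.5 ± 1.97 CPM (SD, n = 3 each). It was called lower in the fit of all libraries (-0.13, SE 0.04, edgeR adjusted p 0.0474) but not under 11 of 14 alternatives, which included every fit with 1 library left out (adjusted p up to 0.178). Slc2a3, a glucose transporter on the far side of Nanog, was at 1079 ± 16.3 and 1117 ± 30.6 CPM and did not pass the threshold (0.05, adjusted p 0.396). Rimklb, the outermost of the left neighbours, was called higher at 0.32 (SE 0.09, edgeR adjusted p 0.0245), a call lost without WT replicate 2, Srrm2+/- replicate 2 or Srrm2+/- replicate 3 (0.25 to 0.40 over all alternatives).

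On chromosome 16, Morc1, which is required for transposon silencing in the male germline, starts 112 kb beyond Dppa2. Its libraries read 113, 121 and 121 CPM in WT against 72.6, 82.0 and 82.1 CPM in Srrm2+/-, a fall by 0.58 on the log2 scale (SE 0.06) with an edgeR adjusted p of 0.000128, while Dppa4 rose and Dppa2 did not pass the threshold. On the other side the nearest protein coding genes are more than 1785 kb away. Of these, Nectin3, a cell adhesion molecule, was at -0.20 (SE 0.05, edgeR adjusted p 0.0212; not called without WT replicate 1 or 3 or without Srrm2+/- replicate 2 or 3), and Phldb2, a protein of the cell cortex, rose by 2.63 (SE 0.07). On chromosome 9, Ooep lies 7.93 kb from Dppa5a and encodes another small KH-domain protein, known from the oocyte. Its libraries read 58.3 to 63.4 CPM in WT against 42.9 to 46.3 CPM in Srrm2+/-, and the log2 difference was -0.44 (SE 0.05) with an edgeR adjusted p of 0.000246. No other tested neighbour of Dppa5a was called.

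**Figure D4:**
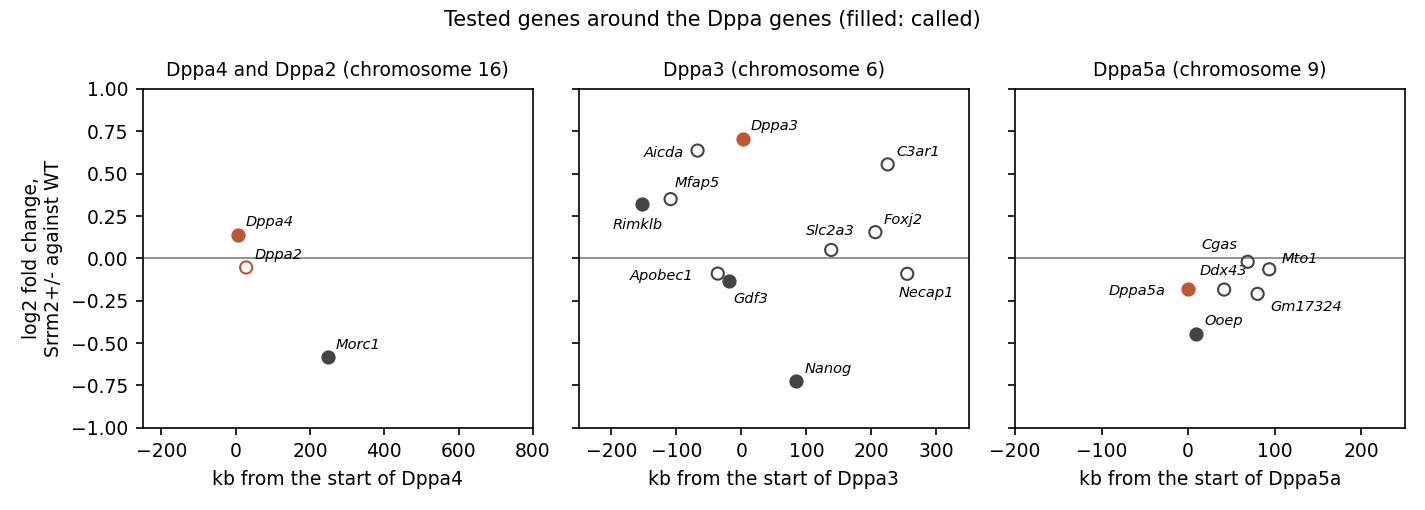
Log2 fold change, Srrm2+/- against WT, of tested genes around the Dppa genes by the distance of their midpoint from the start of the named Dppa gene (kb), with called genes filled, others open and Dppa genes in orange. Dppa3 (0.71) and Nanog (-0.72) lie on opposite sides of 0, and Morc1 (-0.58) and Ooep (-0.44) lie below the Dppa genes beside them; neighbours over 1785 kb away are not drawn.

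Further lists held genes tied to the Dppa proteins by what is known of them, and counts for each stand beside the 13.6% higher and 11.7% lower of all tested genes. Transcripts found with the Dppa genes in early screens for stem cell specific expression had no common direction: of 15 genes, 12 were tested, 3 were called higher and 4 lower (median log2 fold change -0.10). Dnmt3l, a cofactor of the de novo DNA methyltransferases, rose from 55.5 ± 4.27 to 87.6 ± 8.47 CPM (SD, n = 3 each; 0.66, SE 0.08, edgeR adjusted p 0.000381). Utf1, a chromatin-bound factor of stem cells, rose by 0.52 and Eras, a stem cell Ras protein, by 0.50 (SE 0.06 and 0.07). Nanog was the largest fall of this list. Zfp42 (Rex1), a widely used marker of the naive state, was at -0.31 (SE 0.04) and Tdrd12, a factor of the piRNA pathway, at -0.29 (SE 0.04).

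The methylation enzymes and UHRF proteins that DPPA3 is known to act on or beside formed a list of 9 genes, of which 3 were called higher and 2 lower (median 0.00513). Uhrf1, the direct target of DPPA3, was at 272, 281 and 265 CPM in WT and at 255, 277 and 289 CPM in Srrm2+/-. The groups overlapped and the log2 difference of 0.00513 (SE 0.05, 95% interval -0.11 to 0.12, edgeR adjusted p 0.958) had no stable sign when 1 library was left out. Dnmt1, the maintenance methyltransferase that UHRF1 recruits, was at 335 ± 6.02 and 317 ± 10.1 CPM (SD, n = 3 each; -0.08, edgeR adjusted p 0.184). The de novo enzymes were higher, with Dnmt3b rising from 122 ± 8.25 to 237 ± 33.1 CPM (0.95, SE 0.09) and Dnmt3a from 49.6 ± 2.40 to 89.2 ± 6.39 CPM (0.85, SE 0.06). Among the oxidising enzymes, Tet1 fell by 0.35 (SE 0.06) from a high level of 593 ± 10.4 CPM and Tet3 rose by 0.69 (SE 0.13) from 2.12 ± 0.0732 CPM. Uhrf2 was at -0.26 (SE 0.06, edgeR adjusted p 0.0155) and was not called without WT replicate 1, Srrm2+/- replicate 2 or Srrm2+/- replicate 3.

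Genes of the 2-cell stage, which need DPPA2 and DPPA4 for their activation in stem cells, were scarce in all libraries. Of 20 genes, 19 were in the table, 5 were tested, and 2 were called lower and 0 higher by edgeR (0 higher also by DESeq2, by limma voom and at an unadjusted p under 0.05). Log2 fold changes were below 0 for 4 of the 5, whereas Usp17lc was at 0.27 (SE 0.50, edgeR adjusted p 0.747). Duxf3 (Dux) held at most 3 counts in a library and could not be tested. Zscan4f, a telomere-linked factor of 2-cell-like cells, had counts of 160, 188 and 146 in WT against 123, 140 and 107 in the larger Srrm2+/- libraries. The log2 difference was -0.68 (SE 0.14) with an edgeR adjusted p of 0.00847. Zscan4c was at -0.71 (SE 0.19, edgeR adjusted p 0.0246), and this call was lost without WT replicate 2, without any 1 of the Srrm2+/- replicates and with the replicate number as a block (-0.70, adjusted p 0.0540). The Zscan4 genes are near-identical copies among which the counting may have divided reads, so their separate values are uncertain.

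Germline genes that promoter methylation is known to keep silent went both ways. Of 17 genes, 16 were tested, 2 were called higher and 6 lower (median -0.08). Tdrd1, a Tudor protein of the piRNA pathway, rose from 1.27 ± 0.246 to 3.49 ± 0.167 CPM (1.46, SE 0.17) and Mael, which acts in the same pathway, from 16.2 ± 0.496 to 23.4 ± 1.19 CPM (0.53, SE 0.06). Hormad1, a protein of the meiotic chromosome axis, fell from 23.5 ± 2.71 to 11.9 ± 0.807 CPM (-0.98, SE 0.09), Rnf17, a Tudor protein of germ cells, from 72.0 ± 2.45 to 38.0 ± 0.496 CPM (-0.92, SE 0.04) and Smc1b, a meiotic cohesin subunit, from 28.2 ± 3.04 to 17.5 ± 1.31 CPM (-0.69, SE 0.09). These 5 values are means ± SD of 3 libraries per group.

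Dppa3 is a classical marker of primordial germ cells, and 9 other genes were chosen for that cell type, with earlier results of these data known. All 9 were tested, 6 were called lower and 0 higher by edgeR, and the other 3 were also below 0 (median -0.79). By DESeq2, by limma voom and at an unadjusted p under 0.05, 0 of the 9 were called higher, and 8 of the 9 were lower at that unadjusted p. Prdm14, a regulator that supports both naive pluripotency and germ cell fate, was at 19.6, 21.4 and 18.8 CPM in WT and at 9.20, 10.6 and 9.69 CPM in Srrm2+/-. The log2 difference was -1.02 (SE 0.08) with an edgeR adjusted p of 2.60e-05. Prdm1 (Blimp1), which starts the germ cell programme, fell by 0.91 (SE 0.06), and Alpl, the alkaline phosphatase used to stain stem cells and germ cells, by 0.88 (SE 0.07). Of the KH-domain relatives of Dppa5a, 2 of 5 were tested. Beside Ooep, which was called lower, Khdc3 had means of 5.24 ± 0.394 and 5.57 ± 0.423 CPM (SD, n = 3 each) and did not pass the threshold (0.09, SE 0.11, edgeR adjusted p 0.615).

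**Figure D5:**
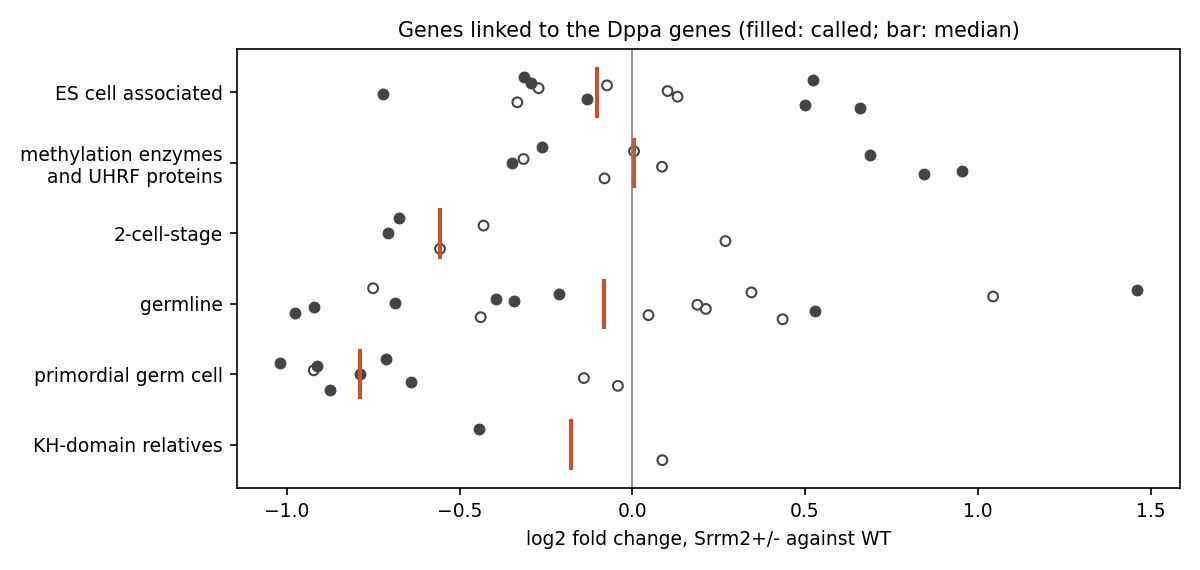
Log2 fold change, Srrm2+/- against WT, of the tested genes of 6 lists linked to the Dppa proteins, 1 point per gene, filled where called and open otherwise, with the list median as an orange bar. All 9 primordial germ cell genes lie below 0 (median -0.79), whereas the germline list spans -0.98 to 1.46. The lists were chosen with earlier results of these data known.

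Finally, the protein coding genes whose profile over the 6 libraries was most like that of each Dppa gene were found among 11003 candidates, by the root mean square difference of log2 CPM after centring each gene on its own mean. For Dppa3 these were Gpx3, Gyg and Bbc3, at distances of 0.05, 0.06 and 0.06, with log2 fold changes of 0.74, 0.74 and 0.67. Dppa4 was closest to Emb, Sssca1 and Iars2 (distances of 0.00903, 0.01 and 0.01), with log2 fold changes of 0.14, 0.15 and 0.14. Nearest to Dppa5a were Zfp35, Apbb2 and Zfp111 (0.01, 0.02 and 0.02) and nearest to Dppa2 were Fkbp15 and Mtif2 (0.01 and 0.01). The distances were larger for Dppa3 than for the other members. Fold changes close to that of the member follow from how these genes were picked, and shared regulation was not tested.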

How the data were processed

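Total RNA was profiled in 3 WT and 3 Srrm2+/- libraries, grouped and numbered by their titles. Per the labels, the authors used kallisto 0.46.1 with GENCODE M24 (mm10), and the deposited table holds estimated counts per gene without normalization. A strand setting was not given in the sources used here. Counts were rounded, and names, positions, lengths and transcript sequences came from GENCODE M21 (GRCm38, 42156 identifiers matched). Promoter sequences of the members were not used here.

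Genes past filterByExpr (minimum count 10, minimum total 15) were tested with edgeR 4.0.16 (TMM, glmQLFit, glmQLFTest, two-sided, Benjamini-Hochberg), with genotype as the sole term. SE is the size of the log2 fold change over the square root of F. CPM use TMM-scaled library sizes. Scripts were tested on simulated counts. All library pairs differed beyond sampling noise (lowest chi-square per degree of freedom 14.7). P-values measure the spread between these libraries, which the study grew from separately frozen batches of each line.

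Alternatives were RLE and upper quartile scaling, removal of short, ribosomal and mitochondrial RNA, DESeq2 1.42.0, limma voom (limma 3.58.1), 2 other filters, a replicate block, a stricter threshold and leaving out each library. Ratios were compared by exact permutation (scipy 1.17.1). Besides the members, named genes were the up to 3 largest called rises and falls of each list, known partners, neighbours and the 3 most alike genes per member, of which 1 is not reported here. Khdc3 and Duxf3 were added after their values were seen. The members and lists were chosen with earlier results of these data known.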

Additional observations from a re-analysis of the deposited data

How the results depend on the processing

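Dppa2, Dppa3 and Srrm2 kept their direction and their side of the threshold under every alternative run for them. Under the other scalings, the median shift of the log2 fold change per gene was at most 0.00459 in size. With 1 library left out, log2 fold changes ranged from 0.13 to 0.15 for Dppa4 and from -0.22 to -0.14 for Dppa5a, both with calls lost, and fewer libraries entered those fits. Called genes numbered 1 to 2 in the 2-cell list and 4 to 6 among neighbours. Below an adjusted p of 0.01, 2779 genes were called in all, 1 in the 2-cell list and 4 among neighbours, and of the members Dppa3 alone stayed called (adjusted p 0.0176 for Dppa4 and 0.0215 for Dppa5a). Of genes named beside the members, 28 of 40 kept direction and side throughout. With 1 library left out, Uhrf1 ranged from -0.0339 to 0.0541 and Fkbp15 from -0.0749 to 0.00380. Deviations of replicates with equal numbers were not correlated (-0.0285, -0.0337 and -0.03), and the numbers were not taken as a pairing. The replicate block gave -0.18 for Dppa5a (adjusted p 0.0548), 4166 called genes and 1 in the 2-cell list. The cause of these losses was not tested. In the 2-cell list, 14 of the 19 genes had too few counts at this depth to be tested, and 3 of them were at 0 in every library.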
